A study of Homo sapiens with 6 samples.

Results

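The 39 genes described here encode core components of macroautophagy and the receptors that bring cargo to it. They were taken from a list of gene names, and each was represented by its probe set with a single symbol, or by the brighter one, by mean over all arrays, where a gene had several. All 39 were measured, among 18417 genes in all. The samples were 6 arrays of total RNA from THP-1, a line grown from a monocytic leukaemia of 1 patient: 3 of unstimulated cells and 3 of cells made macrophage-like with the phorbol ester PMA, an activator of protein kinase C. PMA was applied at 200 nM over 3 days, followed by 3 PMA-free days. Both groups grew in RPMI medium with FBS, glutamate and 2-mercaptoethanol. The labels do not say whether replicates were separate cultures. Each p-value therefore sets the difference between groups against the spread among these arrays only, and that spread may be technical. It is estimated partly from all genes together. With 3 arrays in a group, precision is limited.

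Autophagy encloses cytoplasm in a double membrane and delivers it to lysosomes. The ULK1 kinase complex starts the process, a PI3-kinase complex marks the membrane with the lipid PI3P, and ATG9 vesicles and ATG2 lipid transfer supply membrane. Conjugation enzymes then couple ubiquitin-like ATG8 proteins (the LC3 and GABARAP families) to lipid, and receptors such as SQSTM1 (p62) tether cargo to them. Macrophages use the same machinery against intracellular bacteria, damaged mitochondria and protein aggregates.

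The markers were those of a monocytic line. Of 12 monocyte and macrophage markers, 10 were measured, with 5 higher and 1 lower after PMA. LYZ was the marker that fell, from a mean of 12.57 to 9.81 (−2.76, SE 0.13, limma adjusted p = 8.72e-06). CD163 and MSR1 had means of 4.53 and 5.09 in unstimulated cells and rose by 3.44 and 5.99. CD68 was at 11.55 to 11.80 on the unstimulated arrays and at 11.31 to 11.49 on the PMA arrays. Marker lists of T, B, natural killer, erythroid, fibroblast, epithelial and megakaryocyte cells had mean log2 values of 4.18 to 5.87 on every array. These list means lay below the lowest array median of 6.10, but single markers reached higher values. The highest was 8.35 in the epithelial list, 6.85 in the B cell, 6.74 in the fibroblast and 6.64 in the megakaryocyte list. Within these lists NCAM1 rose by 1.22 (limma adjusted p = 0.000406). CD79A and KRT18 were lower by a narrow margin (limma adjusted p = 0.0429 and 0.0444), and each lost that call without any 1 of 4 or more arrays; the groups overlapped for KRT18, and its dimmest probe set gave −0.03. These genes, like CD68, CD14, LYZ, CD163 and MSR1, were named after their values were seen. Arrays of a group correlated at 0.988 to 0.995 across probe sets (Pearson), and arrays of different groups at 0.958 to 0.968. The unstimulated replicate 1 and PMA replicate 3 arrays had the lower correlations within their groups, and calls of the members that changed without either are given beside the gene. In bulk RNA, a change in the share of cells that make a transcript and a change in transcript per cell cannot be told apart.

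With PMA, members that passed the test lay among the PI3P effectors, conjugation enzymes, ATG8 proteins, cargo and mitophagy receptors and the PI3-kinase complex. None of the 5 genes of the ULK1 complex or the 4 ATG4 proteases passed, where 26.4% of all genes did. Lists of this size are too small to set apart from that share. In limma with Benjamini-Hochberg adjustment over all genes, 8 of 39 members rose at an adjusted p of 0.05, where 13.2% of all genes did. The 8 were WIPI1, WDR45, ATG7, GABARAP, GABARAPL1, GABARAPL2, SQSTM1 and NBR1. The 3 that fell were BNIP3, ATG16L2 and UVRAG, where 13.2% of all genes fell. In either direction 11 members passed (28.2%), against 26.4% of all genes, so the share of members that passed was near the background. WIPI1, SQSTM1 and BNIP3 changed at least 2-fold, 3 of 39, where 8.37% of all genes did. The median log2 fold change was 0.03 over the members and −0.03 over all genes, and the median size regardless of sign was 0.17 and 0.18. The PMA and unstimulated arrays did not overlap for 15 members (38.5%), where 41.2% of all genes did not overlap. PMA was above in 10 of them (19.2% of all genes) and below in 5 (22.0% of all genes). Among all genes that passed, 50.1% were higher, and 61.8% were with each array centred on its median; the members that passed split 8 to 3 in the first case and 9 to 3 in the second.

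**Figure D1:**
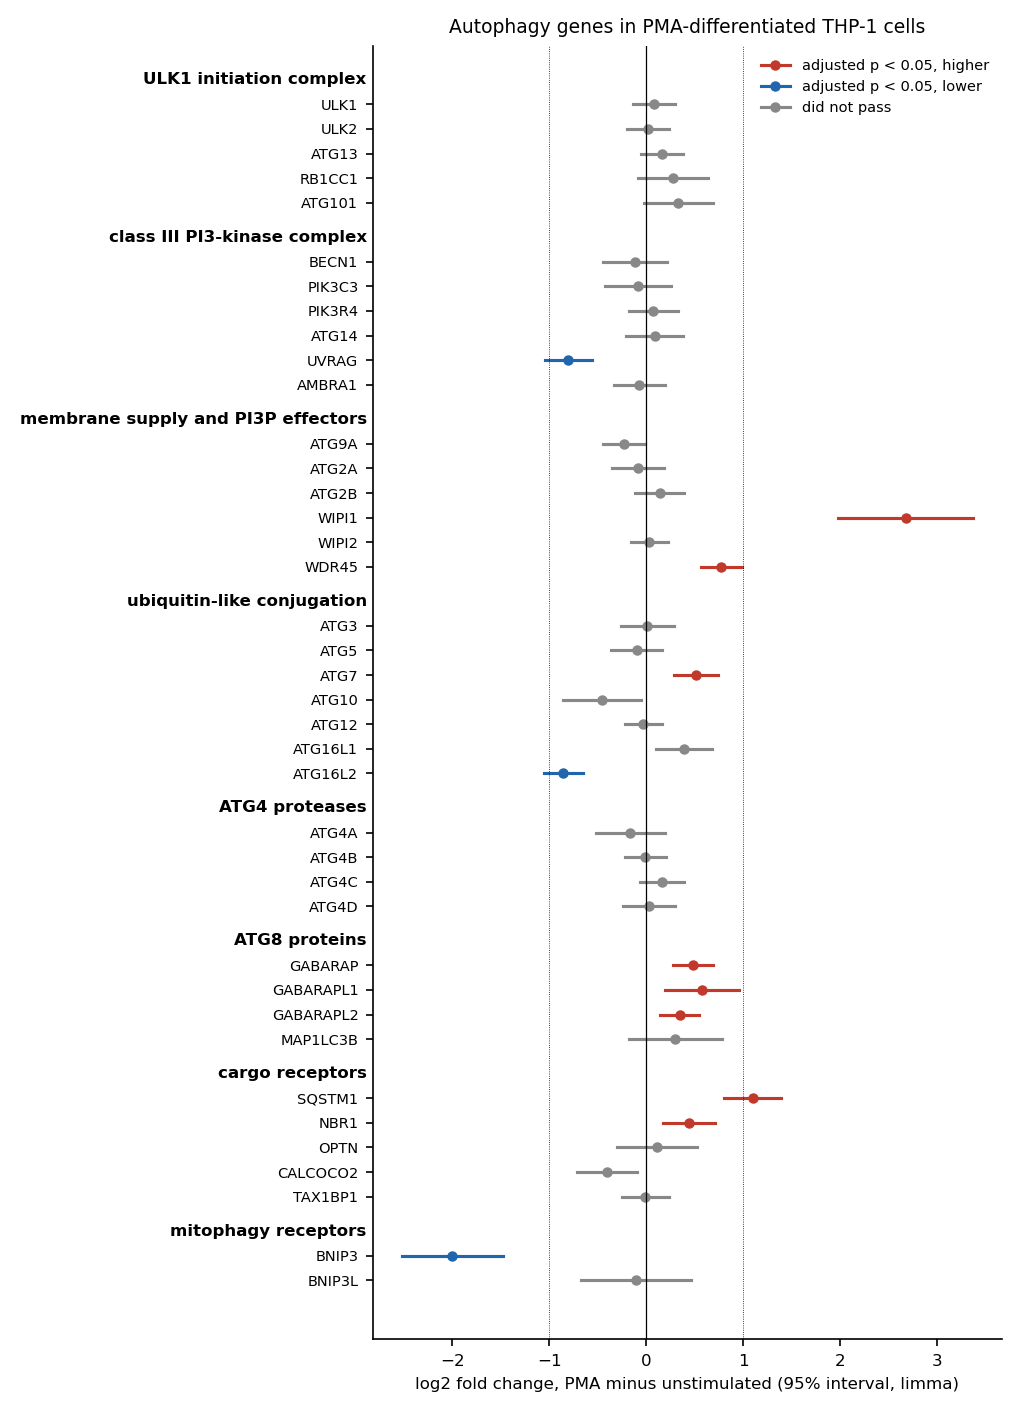
Log2 fold change of each of the 39 autophagy genes (point, PMA minus unstimulated, n = 3 arrays per group) with its 95% interval from limma, ordered by role; dotted lines mark a 2-fold change. WIPI1 (2.68) and BNIP3 (−2.00) lie farthest from 0. The ULK1 complex (5 genes) and ATG4 proteases (4 genes) hold no member that passed, where 26.4% of all genes passed.

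Promoter sequences are shown for the 3 ATG8 genes that rose and for the members with the largest rise and fall. Whether these sequences bear on the changes was not tested. Each runs 5′ to 3′ on the gene's own strand and covers the 250 bases before the start site (RefSeq, GRCh38.p14). Capitals mark matches on either strand to the E-box core CACGTG, to the antioxidant element core TGACNNNGC and to the hypoxia element core ACGTG, the last of which is contained in the first.
GABARAP (chr17:7242450-7242699, minus strand): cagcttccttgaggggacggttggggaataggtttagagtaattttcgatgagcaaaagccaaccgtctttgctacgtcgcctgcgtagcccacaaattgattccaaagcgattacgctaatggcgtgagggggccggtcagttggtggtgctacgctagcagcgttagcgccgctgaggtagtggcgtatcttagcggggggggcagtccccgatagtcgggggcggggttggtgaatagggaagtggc
GABARAPL1 (chr12:10212627-10212876, plus strand): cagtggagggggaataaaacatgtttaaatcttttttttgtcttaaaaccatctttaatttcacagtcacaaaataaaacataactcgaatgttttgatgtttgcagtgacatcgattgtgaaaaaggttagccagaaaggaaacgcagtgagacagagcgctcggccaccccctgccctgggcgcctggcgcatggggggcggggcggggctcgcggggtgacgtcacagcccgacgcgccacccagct
GABARAPL2 (chr16:75566129-75566378, plus strand): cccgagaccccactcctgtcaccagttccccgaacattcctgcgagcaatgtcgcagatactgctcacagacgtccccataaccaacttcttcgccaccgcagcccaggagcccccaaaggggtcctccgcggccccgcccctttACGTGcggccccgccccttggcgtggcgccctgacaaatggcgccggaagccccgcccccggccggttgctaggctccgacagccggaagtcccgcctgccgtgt
WIPI1 (chr17:68457497-68457746, minus strand): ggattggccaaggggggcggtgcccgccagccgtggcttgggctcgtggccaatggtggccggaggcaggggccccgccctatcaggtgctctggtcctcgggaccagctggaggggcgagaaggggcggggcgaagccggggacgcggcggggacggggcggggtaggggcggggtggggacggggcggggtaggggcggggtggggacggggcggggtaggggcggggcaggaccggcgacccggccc
BNIP3 (chr10:131981924-131982173, minus strand): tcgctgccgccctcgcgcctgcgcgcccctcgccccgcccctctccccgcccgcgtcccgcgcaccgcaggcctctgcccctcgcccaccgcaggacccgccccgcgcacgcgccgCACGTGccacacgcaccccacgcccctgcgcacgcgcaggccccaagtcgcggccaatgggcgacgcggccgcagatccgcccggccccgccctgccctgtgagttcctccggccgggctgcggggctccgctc

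These letter patterns were looked for in the 300-base window from 250 bases before to 50 bases after the start site, found for 35 of the 39 members (not for RB1CC1, UVRAG, ATG4D and BNIP3L) and for 14239 of the genes tested here. CACGTG is the core of the E-box to which the lysosomal and autophagy factors TFEB, TFE3 and MITF bind. It was present for 3 members (8.57%), ATG14, ATG3 and BNIP3, against 10.9% of the tested genes with a promoter, where a gene with several start sites counted once if any window held the letters. The longer palindrome known as the CLEAR element was in none of the 35 and in 0.646% of the tested genes. TGACNNNGC, the core of the antioxidant element that NRF2 binds, was in 3 members (8.57%), against 18.3% of the tested genes, and SQSTM1 was not among them. ACGTG, the core of the hypoxia response element, was in 12 members (34.3%), against 28.9% of the tested genes. Of the members that rose, GABARAPL2 had an ACGTG match and the others had no match to any of these patterns in the window. These are letter matches in a short window, not binding sites.

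The initiating kinase complex showed no call. ULK1, the kinase itself, was at 7.68 ± 0.11 in unstimulated cells and 7.76 ± 0.04 after differentiation (means of log2 values ± SD, n = 3 per group), and the 95% interval of the difference ran from −0.14 to 0.30. Its paralogue ULK2 and the adaptor ATG13 differed by 0.02 and 0.17. The scaffold RB1CC1 (FIP200) was at 7.78, 8.19 and 8.36 on the unstimulated arrays and 8.30, 8.52 and 8.34 on the PMA arrays, a difference of 0.28 ± 0.16 (log2 fold change ± standard error here and below) that was 0.11 without unstimulated replicate 1. ATG101, which stabilises ATG13, was at 6.73, 6.49 and 6.57 and then at 7.24, 6.88 and 6.66. That difference of 0.33 did not pass (adjusted p = 0.165). Without PMA replicate 3, the lowest PMA array, it was 0.47 and passed in limma (adjusted p = 0.0420).

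In the PI3-kinase complex, UVRAG fell and the other 5 members did not pass (16.7% passed, against 26.4% of all genes). UVRAG, a Beclin 1 partner that acts in endosome and autophagosome maturation, was at 9.45, 9.45 and 9.64 in unstimulated cells and at 8.67, 8.84 and 8.62 with PMA. The groups were clearly apart, with a fall of 0.80 on the log2 scale (SE 0.10, limma adjusted p = 0.00112, 1.75-fold). ATG14, which directs the same kinase to autophagosome formation, was at 7.50 ± 0.11 and 7.59 ± 0.21 (n = 3 each). The catalytic subunit PIK3C3, its partner PIK3R4, the scaffold BECN1 (Beclin 1) and the regulator AMBRA1 had differences between −0.11 and 0.07, and their groups overlapped.

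WIPI1 changed more than any other member. WIPI1 and its relatives are propeller proteins that bind PI3P on the forming membrane. WIPI1 was at 6.94, 7.68 and 7.80 on the unstimulated arrays and at 10.24, 10.63 and 9.60 on the PMA arrays. Every PMA array lay above every unstimulated array, and unstimulated replicate 1 was the lowest and PMA replicate 3 the lowest of its group. The rise was 2.68 ± 0.30, or 6.40-fold (limma adjusted p = 0.000572), and leaving out each array in turn gave 2.41 to 2.96. In the size of its change WIPI1 stood at the 98.7th percentile of all genes. WIPI2, the relative that recruits the ATG16L1 complex, was at 8.13 ± 0.03 and 8.16 ± 0.03 (n = 3 each), with a 95% interval of −0.16 to 0.22. WDR45 (WIPI4), which binds ATG2, was at 6.83, 6.83 and 6.99 and rose to 7.60, 7.67 and 7.70. Its groups did not overlap (0.77 ± 0.09, limma adjusted p = 0.000707). The lipid transfer proteins ATG2A and ATG2B did not pass, and both probe sets of ATG2B gave like differences (0.14 and 0.13). ATG9A, the scramblase of the vesicles that seed the membrane, was at 8.20, 8.11 and 8.13 and then at 7.91, 7.82 and 8.02. Its PMA arrays all lay lower, but the difference of −0.23 did not pass (adjusted p = 0.113).

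**Figure D2:**
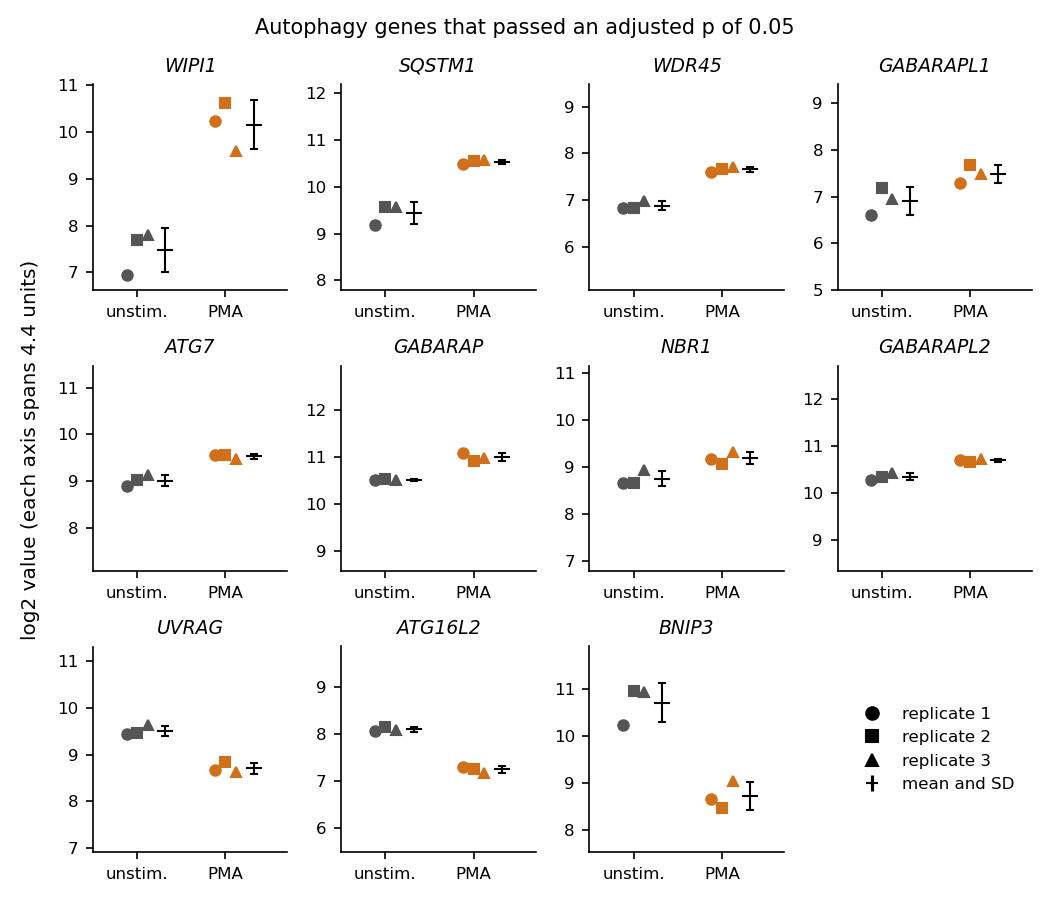
Log2 value on each array for the 11 autophagy genes that passed, in unstimulated (grey) and PMA-differentiated (orange) cells, with the mean and SD of the 3 arrays beside them; marker shape gives the replicate and each vertical axis spans the same number of log2 units. In all 11 the groups do not overlap, where 41.2% of all genes do not. The 11 were chosen by their calls on these same arrays, so the separation adds no further support. The shift is largest for WIPI1 and BNIP3.

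Of the ubiquitin-like conjugation system, ATG7 rose, ATG16L2 fell and 5 members did not pass (28.6% passed, near the 26.4% of all genes). ATG7, the activating enzyme shared by both conjugation reactions, was at 8.89, 9.02 and 9.13 in unstimulated cells and 9.56, 9.57 and 9.47 with PMA. The groups did not overlap, and the rise was 0.52 ± 0.10 (limma adjusted p = 0.00629, 1.43-fold). The conjugating enzyme ATG3 was at 9.94 ± 0.19 and 9.95 ± 0.11, and the ubiquitin-like ATG12 at 7.47 ± 0.02 and 7.44 ± 0.04 (n = 3 each). ATG5, to which ATG12 is joined, differed by −0.10 ± 0.12. Of the paralogues that bind the ATG12-ATG5 conjugate, ATG16L2 fell and ATG16L1 did not pass. ATG16L2, which does not replace ATG16L1 in canonical autophagy, was at 8.07, 8.15 and 8.08 and fell to 7.31, 7.26 and 7.18. This fall of 0.85 on the log2 scale (SE 0.09, limma adjusted p = 0.000342, 1.81-fold) had groups far apart for their spread. ATG16L1, which fixes the site of ATG8 lipidation, was at 6.87, 6.73 and 7.08 and then at 7.40, 7.12 and 7.33. All PMA arrays were above all unstimulated ones, but the difference of 0.39 ± 0.12 just missed the threshold (adjusted p = 0.0541). It passed in limma without PMA replicate 2 (adjusted p = 0.0485), without unstimulated replicate 3 (0.0431) and with each of the 3 rescalings (0.0288 to 0.0370). ATG10, which transfers ATG12 to ATG5, was at 7.24, 7.42 and 7.67 and then at 6.77, 6.85 and 7.34. The groups overlapped through PMA replicate 3 (−0.46, adjusted p = 0.0992), and without that array the difference was −0.63 and passed in limma (adjusted p = 0.0121).

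The ATG4 proteases, which trim ATG8 proteins before lipidation and recycle them later, showed no call. ATG4A, ATG4B, ATG4C and ATG4D differed by −0.16, −0.01, 0.17 and 0.03. Only the PMA arrays of ATG4C, at 8.03 to 8.09, all lay above the unstimulated ones, at 7.76 to 8.02, and its adjusted p was 0.272. Both probe sets of ATG4B gave differences within 0.01 of 0.

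Of the 4 ATG8 genes, GABARAP, GABARAPL1 and GABARAPL2 rose and MAP1LC3B did not pass (3 of 4 higher, where 13.2% of all genes rose). The count of 3 was 2 without any 1 of 5 of the arrays and 1 without PMA replicate 2. GABARAP was at 10.51, 10.55 and 10.50 in unstimulated cells and at 11.10, 10.93 and 10.98 with PMA. The groups did not overlap, and the rise was 0.48 ± 0.09 (limma adjusted p = 0.00549, 1.40-fold). GABARAPL1 was at 6.59, 7.17 and 6.94 and then at 7.29, 7.67 and 7.48. Its groups came close but did not overlap (0.58 ± 0.16, limma adjusted p = 0.0356). The call was lost without unstimulated replicate 1 (0.0679), PMA replicate 2 (0.115), unstimulated replicate 3 (0.0886) or PMA replicate 3 (0.0559). GABARAPL2 (GATE-16) was at 10.28, 10.34 and 10.43 and then at 10.71, 10.66 and 10.72. The groups were apart by a small step (0.35 ± 0.09, limma adjusted p = 0.0210, 1.27-fold), and the call was lost without PMA replicate 1 (0.0744), unstimulated replicate 2 (0.0617) or PMA replicate 2 (0.0534). MAP1LC3B (LC3B), whose lipidated form is the usual marker of autophagosomes, was at 5.70, 6.58 and 6.32 on its single-symbol probe set and at 6.55, 6.51 and 6.44 with PMA. The groups overlapped (0.30 ± 0.21, adjusted p = 0.352), with unstimulated replicate 1 the lowest array, and without that array the difference was 0.05 ± 0.11. Another probe set, annotated to MAP1LC3B together with MAP1LC3B2 and so outside the member's own value, gave a larger difference of 0.91 ± 0.16, with all PMA arrays above all unstimulated ones. These probe sets thus fell on different sides of the threshold.

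Among the cargo receptors, SQSTM1 and NBR1 rose. SQSTM1 (p62), which links ubiquitylated cargo to ATG8 proteins, was at 9.17, 9.56 and 9.57 and rose to 10.49, 10.55 and 10.56. Every PMA array lay above every unstimulated array, and the rise was 1.10 ± 0.12 (limma adjusted p = 0.000609, 2.14-fold). It ran from 0.97 to 1.16 with each array left out. NBR1, a related receptor, was at 8.65, 8.66 and 8.93 and then at 9.17, 9.07 and 9.33. Its groups did not overlap (0.44 ± 0.12, limma adjusted p = 0.0256), and the call was lost without unstimulated replicate 1 (0.0618), PMA replicate 1 (0.0754), unstimulated replicate 2 (0.0907) or PMA replicate 3 (0.0599). CALCOCO2 (NDP52), a receptor for bacteria and mitochondria, was at 8.38, 8.76 and 8.84 and then at 8.31, 8.19 and 8.26. All PMA arrays lay lower, and the difference of −0.40 ± 0.13 did not pass (adjusted p = 0.0590). Without unstimulated replicate 1, the lowest of its group, it was −0.55 and passed in limma (adjusted p = 0.00674). TAX1BP1, a paralogue of CALCOCO2, was at 9.47 ± 0.13 and 9.46 ± 0.08, and OPTN (optineurin) at 6.58 ± 0.33 and 6.69 ± 0.19 (n = 3 each), without a call.

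SQSTM1 is also a target of the antioxidant factor NRF2, so a list of NRF2 targets was set beside it. Of 15 listed, 13 were measured. Of these, 5 rose (38.5%) and 1 fell (7.69%), where 13.2% of all genes rose and 13.2% fell. The count that rose ran from 4, as without PMA replicate 1, to 7 without PMA replicate 3. It was 9 with array quality weights. HMOX1, which degrades haem, rose by 3.10 ± 0.31 in limma (adjusted p = 0.000300). GCLC, the catalytic subunit of glutathione synthesis, and the quinone reductase NQO1 rose by 2.15 ± 0.13 and 2.11 ± 0.14. The transketolase TKT fell by 0.54 (SE 0.09). The median over the list was 0.65, against −0.03 over all genes. Whether NRF2 acts on SQSTM1 in these cells was not tested.

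The mitophagy receptors BNIP3 and BNIP3L (NIX) are paralogues on the outer mitochondrial membrane, both known hypoxia-response genes. BNIP3 fell and BNIP3L did not pass, and the difference between their changes was not tested. BNIP3 was at 10.23, 10.96 and 10.94 in unstimulated cells and at 8.65, 8.46 and 9.04 with PMA. The groups were far apart, and the fall of 2.00 on the log2 scale (SE 0.23, limma adjusted p = 0.000597, 3.99-fold) placed it at the 97.4th percentile of all genes by size. It fell by 2.24 without unstimulated replicate 1. BNIP3L was at 10.11, 11.02 and 11.04 and then at 10.63, 10.75 and 10.47. Unstimulated replicate 1 lay below every PMA array and the other unstimulated arrays above them, so the groups overlapped (−0.11 ± 0.24, adjusted p = 0.811). Without that array the difference was −0.42 ± 0.11 and passed in limma (adjusted p = 0.0362).

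Hypoxia response genes were set beside this pair, since BNIP3 is a standard member of that programme. Of 20 listed, 19 were measured. Of these, 8 fell (42.1%) and 3 rose (15.8%), where 13.2% of all genes fell and 13.2% rose. The aldolase ALDOC fell by 2.48 (SE 0.45, limma adjusted p = 0.00559), the prolyl hydroxylase EGLN3 by 1.69 (SE 0.39, 0.0151) and the collagen prolyl hydroxylase P4HA1 by 1.20 (SE 0.28, 0.0160). ADM, the peptide adrenomedullin, rose by 1.29 ± 0.19, and the glycolytic regulator PFKFB3 and the collagen prolyl hydroxylase P4HA2 by 0.38 ± 0.08 and 0.49 ± 0.13. Members of this list thus changed in both directions. EGLN3 lost its call without PMA replicate 1 (0.0559) or unstimulated replicate 2 (0.0682), and P4HA1 without PMA replicate 1 (0.0568), unstimulated replicate 2 (0.0702) or unstimulated replicate 3 (0.0583). P4HA2 lost its call without unstimulated replicate 1 (0.0731), PMA replicate 1 (0.110), unstimulated replicate 2 (0.0851) or PMA replicate 2 (0.104). On unstimulated replicate 1 the median gene of the list was 0.60 below the other unstimulated arrays, while BNIP3 and BNIP3L were 0.72 and 0.93 below them. Without that array, 9 of the list fell and 2 rose. The count that fell was 4 without PMA replicate 1, 4 without unstimulated replicate 2, 5 without unstimulated replicate 3 and 3 when each gene had its own variance, where ALDOC also lost its call (0.0776). Without PMA replicate 3, 6 rose and 7 fell. On that array the median gene of the list was 0.33 below the other PMA arrays. VEGFA, named after its values were seen, was at 11.08 and 11.24 on the other PMA arrays and at 8.78 there. Its rise of 1.28 ± 0.69 did not pass (adjusted p = 0.232). Without PMA replicate 3 the rise was 2.07 and passed in limma (adjusted p = 0.00867). The part that the departure of unstimulated replicate 1 has in the BNIP3L result was not tested beyond leaving that array out.

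**Figure D3:**
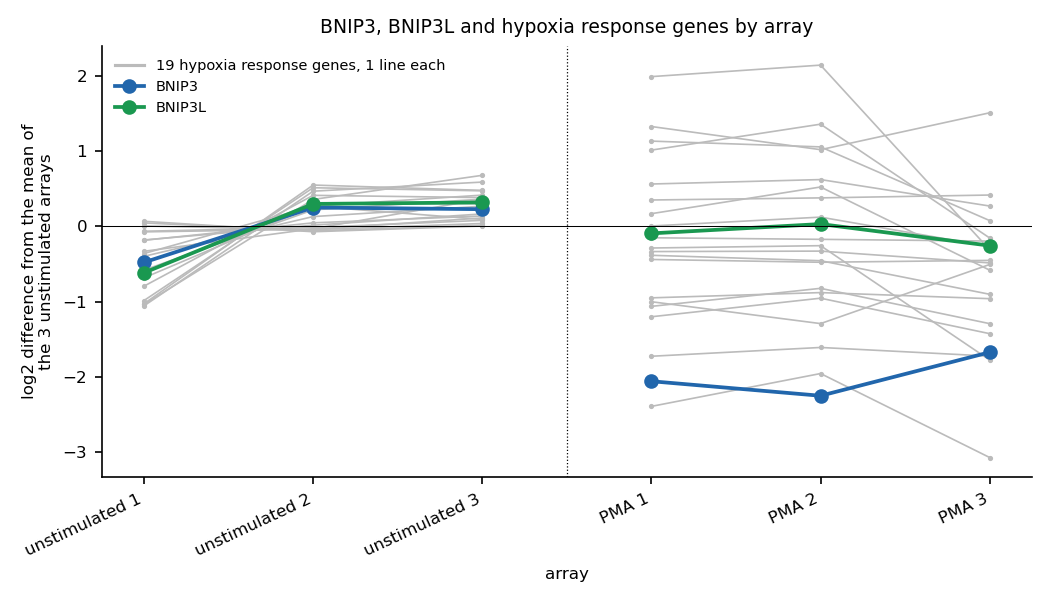
Log2 difference from the mean of the 3 unstimulated arrays for BNIP3, BNIP3L and 19 hypoxia response genes on each array; lines only join the points of a gene within a group. BNIP3 is low on all PMA arrays, BNIP3L is near 0 there, and both are low on unstimulated replicate 1, as are many of the grey lines.

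The unstimulated replicate 1 array departed from its group for several autophagy genes besides these. It lay more than 0.5 below the mean of the other unstimulated arrays for 6 of 39 members (WIPI1, RB1CC1, MAP1LC3B, OPTN, BNIP3 and BNIP3L) and more than 0.5 above it for none, where 4.09% of all genes lay that far below. PMA replicate 3 lay more than 0.5 below the mean of the other PMA arrays for 1 of 39 members (WIPI1), where 4.48% of all genes did. It lay more than 0.5 above that mean for ATG10. The limit of 0.5 was chosen after the values were seen. Among the monocyte markers, CD14 was at 7.51 on unstimulated replicate 1 and at 9.67 and 9.65 on the other unstimulated arrays. With both arrays left out, 7 members rose and 6 fell, against 8 and 3 with all arrays. No share of all genes is given for this refit, so these counts have no background beside them. In the same refit 6 hypoxia response genes rose and 10 fell, against 3 and 8 with all arrays. Of the NRF2 targets, 9 rose and 1 fell there, against 5 and 1.

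Most members without a call had narrow intervals. These reflect the spread among these arrays only, not the choice of normalization or probe set. Of 28 members without a call, 21 had a 95% interval inside a 1.5-fold change in either direction. MAP1LC3B (−0.18 to 0.78) and BNIP3L (−0.67 to 0.46) were among those with wider ones. In limma, 4 of the 28 had an unadjusted p under 0.05 (ATG9A, ATG10, ATG16L1 and CALCOCO2). No member had a group mean below every array's lower quartile.

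Pathway genes outside the members changed in both directions. Over 4 lists, 87 of 93 genes were measured, and 19 rose and 10 fell (33.3% in all, against the 26.4% of all genes). Of 34 genes of nutrient and energy sensing, 6 rose and 4 fell (29.4% in all, against 26.4% of all genes). That share was near the background. Without PMA replicate 1, 3 rose and 2 fell. The count that fell was also 2 without unstimulated replicate 2, PMA replicate 2 or unstimulated replicate 3. The lysosomal and autophagy transcription factor gene TFE3 was at 8.20, 7.97 and 7.90 and rose to 9.74, 9.41 and 9.52 (1.54 ± 0.12, limma adjusted p = 0.000115). MITF, of the same family, rose by 1.86 ± 0.19, from 6.34, 7.05 and 7.06 to 8.71, 8.76 and 8.56. TFEB itself was at 7.42 ± 0.10 and 7.44 ± 0.08 (n = 3 each), with a 95% interval of −0.20 to 0.24. The mTOR inhibitor gene DEPTOR fell by 1.54 (SE 0.17) and SESN3, a sestrin that restrains mTORC1, fell by 3.41 (SE 0.16), from 10.01 to 10.55 on the unstimulated arrays down to 6.60 to 6.97. SESN1 rose by 0.98 ± 0.28, a call lost without unstimulated replicate 1 (0.0825), PMA replicate 1 (0.0639) or unstimulated replicate 2 (0.0892). DDIT4 (REDD1), another mTORC1 inhibitor, fell by 1.14 (SE 0.30), a call lost without PMA replicate 1 (0.0902), PMA replicate 2 (0.0561), unstimulated replicate 2 (0.0997) or unstimulated replicate 3 (0.0870). MTOR did not pass (0.24 ± 0.15, adjusted p = 0.303), and passed in limma without unstimulated replicate 1 (0.42, adjusted p = 0.0177).

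Of 20 other core and accessory genes, 6 rose and 3 fell (45.0% in all, against 26.4% of all genes). The count that rose was 3 without PMA replicate 1 or PMA replicate 2. The Rubicon family split: RUBCN, which restrains autophagosome maturation, rose by 0.66 ± 0.11, and RUBCNL (Pacer), which promotes it, was at 9.72 to 10.08 and fell to 8.14 to 8.48 (limma adjusted p = 0.000135). BCL2 and BCL2L1, survival proteins that bind Beclin 1, went opposite ways. BCL2 fell by 1.85 (SE 0.29) and BCL2L1 rose by 1.43 ± 0.15. SH3GLB1 (BIF-1), which binds UVRAG, rose by 0.94 ± 0.10. Of the C9orf72 complex, WDR41 fell by 0.62 (SE 0.11) and C9orf72 rose by 0.84 ± 0.24, a call lost without any 1 of unstimulated replicate 1 (0.0829), unstimulated replicate 2 (0.0937), PMA replicate 1 (0.118) and PMA replicate 2 (0.109). MAP1LC3A did not pass (0.24 ± 0.12).

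Of 17 genes of fusion with lysosomes, 4 rose and 1 fell (29.4% in all, against 26.4% of all genes). The count that rose was 1 without unstimulated replicate 2, 2 without PMA replicate 1 and 2 without unstimulated replicate 3. RAB7A (0.37 ± 0.10, named after its values were seen), VPS18 (0.38 ± 0.09) and SNAP29 lost their calls in part of these. RAB7A has 2 probe sets with a single symbol, and its rise ran from 0.33 to 1.20 over all alternatives. The SNARE proteins moved unevenly: YKT6 rose by 0.80 ± 0.12 and SNAP29 by 0.49 ± 0.11, VAMP8 fell by 0.91 (SE 0.11), and STX17 did not pass (−0.27 ± 0.12, adjusted p = 0.160). SNAP29 lost its call without unstimulated replicate 2 (0.0567). LAMP1 and LAMP2, lysosomal membrane proteins, did not pass (0.27 ± 0.17 and 0.24 ± 0.09). LAMP1 passed in limma without PMA replicate 2 (adjusted p = 0.0473). Of 16 other selective receptors and kinases, 3 rose (TEX264, TOLLIP and TBK1) and 2 fell (RETREG1 and NIPSNAP2). In all 31.25% passed, against 26.4% of all genes. Without unstimulated replicate 1, PMA replicate 1 or unstimulated replicate 2 the count that rose was 1, and without PMA replicate 3 it was 5; both falls lost their calls without unstimulated replicate 3. TEX264, a receptor for the endoplasmic reticulum, rose by 0.53 ± 0.10 and RETREG1 (FAM134B), another, fell by 0.60 (SE 0.14, limma adjusted p = 0.0134), a call lost without unstimulated replicate 3 (0.0549). TBK1, the kinase that phosphorylates OPTN and SQSTM1, rose by 0.49 ± 0.13 and lost its call without unstimulated replicate 1 (0.0634), PMA replicate 1 (0.0732), unstimulated replicate 2 (0.0956) or PMA replicate 2 (0.0927). TOLLIP (0.58 ± 0.16) lost its call without unstimulated replicate 1 (0.0776), 2 (0.0739) or 3 (0.113) or PMA replicate 1 (0.0615), and NIPSNAP2 (−0.49 ± 0.14) without unstimulated replicate 1 (0.0829) or 3 (0.120) or PMA replicate 1 (0.116) or 2 (0.115). PINK1, the mitophagy kinase, did not pass (0.31 ± 0.14, adjusted p = 0.158), and passed in limma without PMA replicate 3 (0.45, adjusted p = 0.0325).

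**Figure D4:**
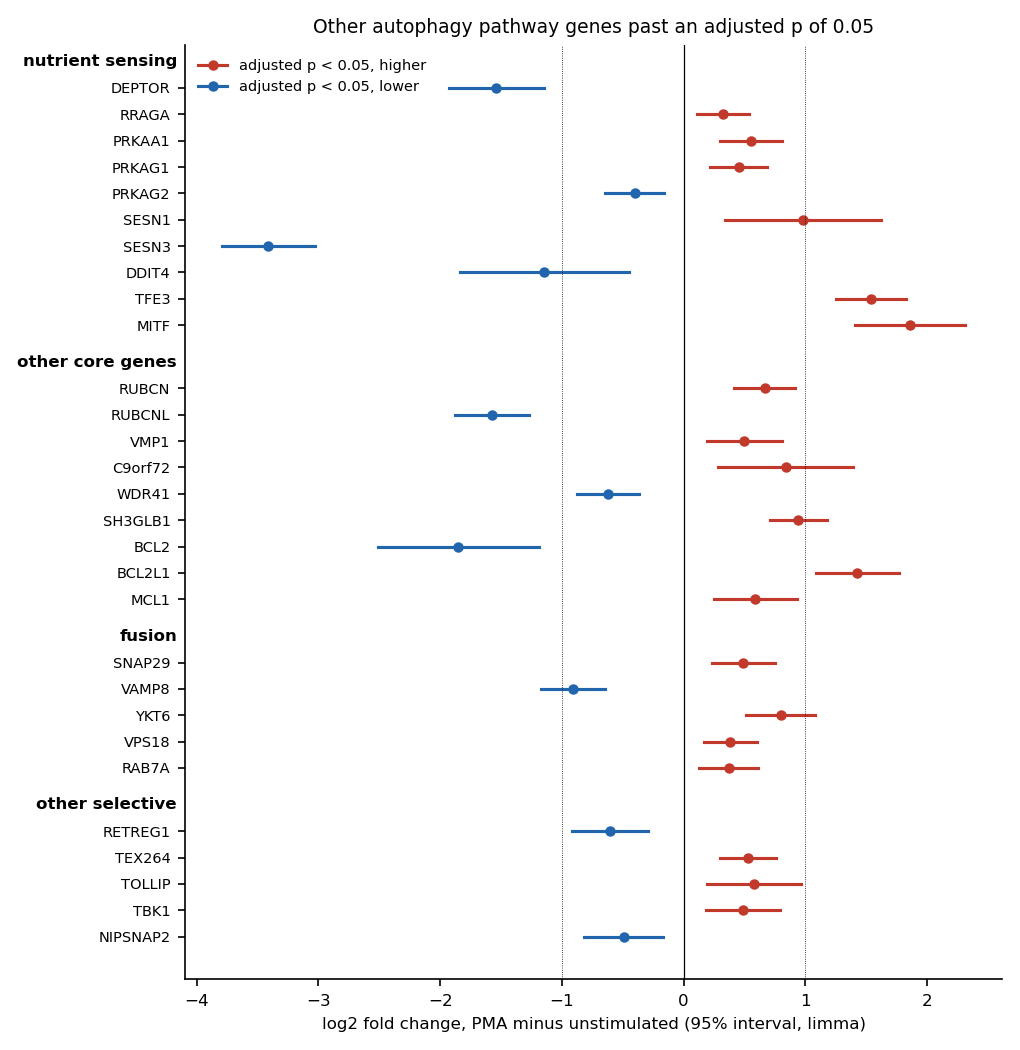
Log2 fold change (PMA minus unstimulated, n = 3 arrays per group) with its 95% interval from limma for the 29 autophagy pathway genes outside the 39 members that passed an adjusted p of 0.05, by list; dotted lines mark a 2-fold change. SESN3 (−3.41), MITF (1.86) and BCL2 (−1.85) lie farthest from 0.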

How the data were processed

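Single-colour Affymetrix arrays were measured, and the authors deposited log2 values for 33297 probe sets. The submitters' processing notes name RMA and Partek, with versions not stated. RMA corrects background and normalizes arrays jointly, so differences close to background shrink. Gene names came from the platform annotation, updated by gene ID (GRCh38.p14; 19429 of 19460 matched). Those with several symbols (1754) or none (12083) were left out. The probe set with the highest mean over 6 arrays stood for a gene (769 genes had several), with no filter on dim genes. Group labels came from the samples' own descriptions. Groups were tested by lmFit and eBayes of limma 3.58.1 under R 4.3.3 (group as the only term, two-sided), adjusted by Benjamini-Hochberg over 18417 genes, with a threshold of 0.05; the steps were tested on simulated data. Intervals are 95% from the same fit. The 39 members, the lists and the rule for named genes (every member, up to 3 genes past the threshold per direction of each other list, and a few fixed genes) were chosen with earlier results of these data known. Promoters are from RefSeq. Figures used matplotlib 3.10.9. Alternatives covered normalization, dim genes, probe set, variance model, threshold, a replicate block and leaving out each array.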

Additional observations from a re-analysis of the deposited data

Results flagged for a closer look

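A probe set annotated to both MAP1LC3B and MAP1LC3B2 carried a signal outside the comparison of members, which used probe sets with a single symbol. It was at 9.27, 9.70 and 9.80 on the unstimulated arrays and at 10.38, 10.43 and 10.68 on the PMA arrays, so the groups did not overlap. Its log2 fold change was 0.91 ± 0.16 (limma, adjusted p = 0.00825 over all 33297 probe sets). The single-symbol probe set of MAP1LC3B gave 0.30 ± 0.21 and did not pass. Which of the paired genes the shared probe set reports cannot be told apart.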

How the results depend on the processing

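Of the 11 members that passed, 8 kept their call under every alternative normalization, filter, probe set rule, variance model, block and left-out array; GABARAPL1, GABARAPL2 and NBR1 did not. When each gene had its own variance (the gene-wise test), GABARAPL1 (adjusted p = 0.145) and NBR1 (0.0854) lost theirs. Members higher, 8 in the comparison, were 5 at an adjusted p of 0.01 and 2 at 2-fold or more, and ran from 6 to 8 with 1 array left out. Members lower, 3 in the comparison, were 1 at 2-fold or more and 5 with array quality weights. They were 6 with unstimulated replicate 1 and PMA replicate 3 left out together, an alternative chosen after seeing the data. No share of all genes is given for array quality weights or for that joint omission. With 1 array left out, members lower ran from 3 to 5, the 5 without unstimulated replicate 1. Other pathway genes, 19 higher and 10 lower, were 8 and 6 at an adjusted p of 0.01, 3 and 5 at 2-fold or more, and 11 and 5 by the gene-wise test; they ran from 9 to 22 and from 6 to 11 with 1 array left out (9 without PMA replicate 1, 11 higher without unstimulated replicate 2, 6 lower without unstimulated replicate 3). All genes, 2431 higher and 2423 lower, were 1509 and 1315 at an adjusted p of 0.01, 952 and 590 at 2-fold or more, and 1385 and 1458 by the gene-wise test; they ran from 1726 to 2593 and from 1597 to 2449 with 1 array left out. Whether the replicate numbers in the titles pair the arrays was not settled. Same-numbered arrays had correlations of their deviations of 0.177, −0.0217 and 0.0463, the first being the highest of any pair. Unstimulated replicate 2 correlated best with PMA replicate 3 (0.112). With 3 arrays in a group, such correlations cannot show whether arrays were paired. With the replicate number as a block, 9 members rose and 4 fell, and 2409 and 2317 genes did so; ATG10 (0.0221) and ATG16L1 (0.0405) gained a call. Of 697 recomputed member values, 40 changed sign, over 15 members, none of them past the threshold with all arrays; the cause was not tested. These were, with arrays centred on their medians, AMBRA1 0.014, ATG2A 0.002, ATG12 0.057, ATG4B 0.076 and TAX1BP1 0.078; with cyclic loess, ATG12 0.043, ATG4B 0.068 and TAX1BP1 0.061; with quantile normalization repeated, ATG4B 0.023; with array quality weights, ULK2 −0.002, ATG14 −0.017, ATG4B 0.021 and OPTN −0.068; with both arrays left out, ATG14 −0.088, ATG5 0.025, ATG4B 0.011, OPTN −0.157 and TAX1BP1 0.024. With 1 array left out they ran from −0.017 to 0.075 for ULK2, −0.245 to 0.022 for BECN1, −0.25 to 0.038 for PIK3C3, −0.01 to 0.149 for PIK3R4, −0.034 to 0.154 for ATG14, −0.174 to 0.003 for AMBRA1, −0.187 to 0.002 for ATG2A, −0.075 to 0.11 for ATG3, −0.066 to 0.028 for ATG4B, −0.058 to 0.102 for ATG4D, −0.075 to 0.229 for OPTN, −0.084 to 0.038 for TAX1BP1 and −0.415 to 0.053 for BNIP3L.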
